A study of Mus musculus with 9 samples.

Results

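The early response of microglia to apoptotic cells was read from 6 of the 9 arrays of the series, the 3 arrays of microglia 3 h after feeding (Ph3h) and the 3 arrays of unfed control microglia, chosen by the time point in their titles. Every culture was primary microglia from the brain of newborn fms-EGFP mice, a strain in which the fms promoter drives green fluorescent protein in microglia and other myeloid cells. Brains of more than 1 pup shared a flask. The mixed culture was kept for about 14 d with GM-CSF at 5 ng/ml, a factor that makes microglia divide. The microglia were then shaken off and plated. Ph3h cultures received, at about 1 cell per microglia, dead cells of the human neuroblastoma line SH-SY5Y, stained with the membrane dye CM-DiI and killed with staurosporine at 3 μM for 4 h. Control cultures were naive and carry a time of 0 h, so that an effect of feeding and an effect of 3 h more in culture, of handling or of carried-over dye or staurosporine cannot be told apart in these 6 arrays. The arrays of a group stand for independent experiments according to the methods.

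Microglia are the resident phagocytes of the brain, and clearance of apoptotic cells, called efferocytosis, runs from receptors that bind the dying cell, through an actin-driven cup, to digestion in the lysosome. Signals at the cell surface reach the nucleus through MAP kinases, NF-kB and JAK-STAT proteins, which switch on immediate early transcription factors, genes that need no new protein to be induced. Their products then act on cytokine, growth factor and metabolic genes, while inducible phosphatases and inhibitors damp the same pathways.

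The plotted and tested value of a gene is a level, log2 of the background-subtracted intensity of its brightest probe minus the 75th percentile of the same array, and a change is the mean level in Ph3h minus that in control. Levels of different genes come from different probes and are not compared with each other. The 75th percentile of the intensity was 472, 412 and 355 on the control arrays and 211, 185 and 199 on the Ph3h arrays, and between 25,618 and 29,286 probes were well above background on these 6 arrays. Replicates 1 and 2 of each group shared a scan date and replicate 3 had another. Arrays of 1 scan date are called a slide here, with replicates 1 and 2 on slide 1, though no slide label was read. No spot was saturated, and Pearson's r between replicates, across probes, lay between 0.986 and 0.989. The fit in limma held the group means of all 9 arrays, and Benjamini-Hochberg adjustment ran over all 24,101 genes. A gene was called at an adjusted p below 0.05. A gene that no array of a group measured well above background is called dim there, and its fold change is then a lower bound, set against the lowest signal well above background on each array.

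Slightly over 1 gene in every 2 differed between Ph3h and control. In all, 12,971 of 24,101 genes (53.8%) were called, 6724 higher (27.9%) and 6247 lower (25.9%), and 12,842 (53.3%) were called with no overlap between the 3 Ph3h and the 3 control arrays. Called or not, 35.2% of genes had all Ph3h arrays above, and 30.5% below, all control arrays, and between Ph24h and Ph3h 44.4% were called. The larger changes were mostly rises where both groups were measured, a count that leaves out genes dim in a group. Among genes measured in both groups, 3853 rose and 2887 fell at least 1.5-fold, 1946 rose and 1246 fell at least 2-fold, 506 rose and 130 fell at least 4-fold, and 105 rose and none fell at least 16-fold. In addition 1180 genes were dim only in control and 2218 were dim only in Ph3h, and these are not in the counts by size. The middle 50% of genes had changes between -0.39 and 0.62 on the log2 scale, and the median over all genes was 0.07. This median depends on the scaling. It was -0.18 when the median of the array replaced the 75th percentile, -0.07 with quantile normalization and -0.04 with normexp background correction followed by quantile normalization (normexp below), and the share of called genes that were higher was 51.8%, 33.6%, 42.9% and 42.3%, in that order from the 75th percentile. Small changes near these shifts therefore have no settled direction, and median scaling is given beside the counts of many lists below. Counts of all lists below stand against 27.9% higher and 25.9% lower over all genes, and some lists lie near these shares. For each gene described below as having risen or fallen, no Ph3h array overlapped with a control array, and each error is the standard error of the fit with n = 3 arrays per group.

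**Figure D1:**
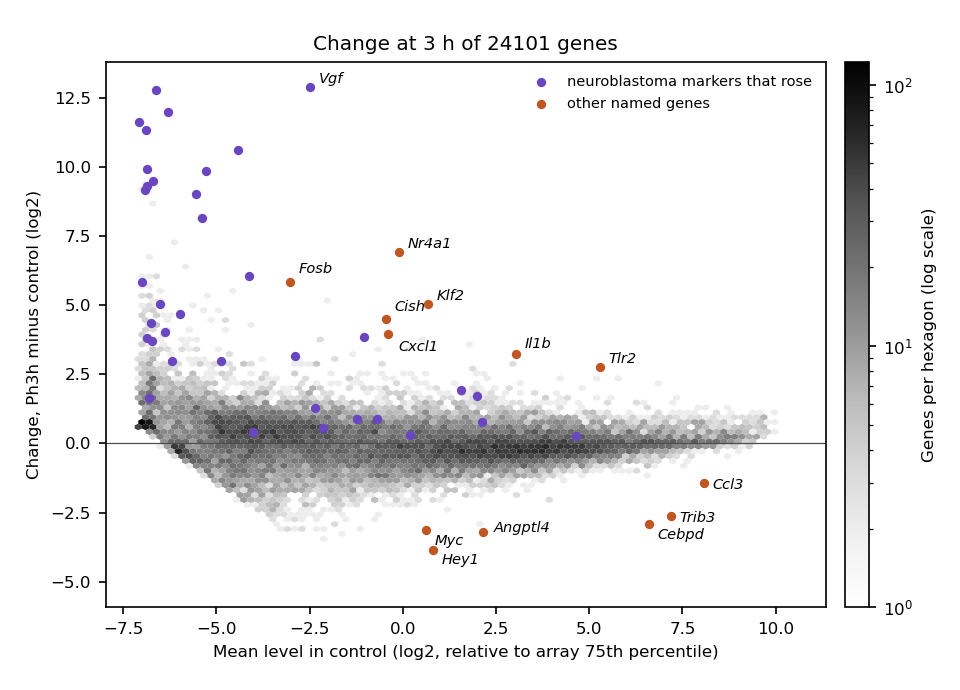
Change from control to Ph3h (vertical axis, log2) against the mean level in control (horizontal axis, log2 relative to the array's 75th percentile) for 24,101 genes, with darker hexagons where more genes lie. Purple points are the 36 neuroblastoma markers that rose, several of them dim in control, and orange points are other genes named in the text, such as Nr4a1 at 6.93 and Hey1 at -3.84.

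The cultures carried the microglial genes of their label, and the fed cultures also gave signal on mouse probes of neuronal genes. Of 12 microglia and macrophage markers, all of them well above background on every control array, 7 were higher and 2 were lower at 3 h, and the sum of their linear levels ran from 2092 to 2174 on the control arrays and from 2751 to 2923 on the Ph3h arrays. With median scaling 3 were higher and 3 lower. Aif1, which encodes the microglial protein Iba1, had levels of 7.81, 7.92 and 7.88 in control and 9.38, 9.04 and 9.25 in Ph3h (change 1.35 ± 0.09, adjusted p = 1.7e-05). Some markers of other cells that a mixed brain culture can hold were called, beside 53.8% of all genes. These were 2 of 8 measured astrocyte markers (1 to 4 in the alternatives), 6 of 9 oligodendrocyte markers (5 to 7) and 1 of 7 fibroblast markers (1 to 3). Of neuron markers 1 of 2 (0 to 1) and of endothelial markers 4 of 4 (2 to 4) were called. The fibroblast gene Dcn rose by 1.05, and of the endothelial genes Pecam1 rose by 0.73, Kdr had 0.37, or -0.63 with the mean over its probes, Flt1 fell by 1.09, and Cdh5 had -0.91, a call that was lost with the replicate block (adjusted p = 0.063), with a trend in the variance (0.12) and without control array 2 or 3 (0.070 and 0.091). With the replicate block Kdr was not called either (adjusted p = 0.085). Of the astrocyte genes Aldoc fell by 0.79, Aldh1l1 had 0.83 on its brightest probe, -0.77 on the other and 0.03 with their mean (adjusted p = 0.90), and the defining gene Gfap, well above background on 1 array of each group, had a mean level of -4.28 in control and -4.94 in Ph3h (adjusted p = 0.73). Of the myelin genes Mag and Mog rose by 1.02 and 0.99, Mbp fell by 0.53 on its brightest probe and had 0.29 on another (adjusted p = 0.27), Olig1 was dim in Ph3h, and the sum of the oligodendrocyte markers ran from 266 to 326 and from 420 to 478. The part of these cells in the results was not tested.

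Of 64 markers of neuroblastoma and sympathetic neurons 52 were measured, 36 rose and 2 fell, with a median change of 1.83, against 0.07 over all genes, and of 1.64 when genes dim in a group took their bounds. With normexp the median was 0.63. The 2 lower calls, Gata3, dim in Ph3h, and Slc18a2, were both lost with the replicate block (adjusted p = 0.060 and 0.055), on slide 1 alone, and without control array 1 or 3 or Ph3h array 1 or 3. Of these 52, 21 were dim in control and so were kept only because an array of fed cultures, at either time, measured them well above background. Markers that no array measured well above background were left out. For the 21 this choice favors rises, so that the count and the median hold for the measured markers and not for all 64. The sum of the linear levels of the 52 rose from between 43.1 and 44.9 on the control arrays to between 1707 and 1831 on the Ph3h arrays. Vgf, a neuropeptide precursor, had levels of -2.63, -2.05 and -2.78 in control and 10.35, 10.48 and 10.39 in Ph3h, the widest change of any gene measured in both groups (change 12.89 ± 0.18, adjusted p = 1.3e-08). Its arrays did not overlap between the groups, and its probe covers chr5:137509153-137509212 in mm9. The first 30 of the 60 bases that gave this signal are printed because the RNA of the fed cells is human and the probe is mouse.
Vgf probe: ctctgttgtaaatacccctcacggaggaaa
Among genes dim on every control array the highest bounds belonged to Lrrn3, whose neuronal membrane protein carries leucine-rich repeats (at least 1962-fold), Scg2, a granin of secretory granules (at least 1380.3-fold), Rpl10l, a ribosomal protein paralog (at least 1321-fold), Hand2, a transcription factor of the sympathetic lineage (at least 639.9-fold), and Chga, chromogranin A (at least 589.6-fold). Meis2, Nefl, Camkv and Dlk1, genes of neurons and their precursors, were at least 303-fold, 226-fold, 216-fold and 187-fold higher. On their other probes Rpl10l had a change of 0.93 (adjusted p = 0.30) and Dlk1 of -0.18 (adjusted p = 0.80). Human RNA of engulfed or attached SH-SY5Y cells and mouse RNA of the microglia cannot be told apart by these intensities, also for the genes of the following paragraphs, since a mouse probe can bind the human transcript. Likewise a change in bulk RNA cannot tell a shift in cell makeup from a shift in RNA per cell.

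Immediate early transcription factors rose more than any other list of pathway genes by their median. All 25 listed genes were measured, 18 rose and 2 fell, with a median change of 2.31, and of 1.97 when dim genes took their bounds, against 0.07 over all genes. The nuclear receptor gene Nr4a1, an early response gene without a known natural ligand, had levels of -0.16, -0.12 and 0.00 on the control arrays and 6.95, 6.75 and 6.82 on the Ph3h arrays. These 2 sets lie far apart, a 122-fold rise (change 6.93 ± 0.32, adjusted p = 3.1e-06). Its relatives Nr4a2 and Nr4a3 moved the same way. Nr4a2 went from -0.40, -0.60 and -0.66 to 3.95, 3.59 and 3.91 (change 4.37 ± 0.13, adjusted p = 4.5e-07), and Nr4a3 was dim in control and at least 13.6-fold higher (adjusted p = 1.7e-06). The probe of Nr4a1, whose first 30 bases follow, covers chr15:101105071-101105130 in mm9, and that of Fosb, the next factor described, covers chr7:19888168-19888227.
Nr4a1 probe: ctcttccgctctccttccatgtgtacataa
Fosb probe: actgccgaccacaattcattgactccatag
Among subunits of the AP-1 factor, Fosb rose from -3.37, -2.97 and -2.75 to 2.74, 2.82 and 2.92 (change 5.85 ± 0.29, adjusted p = 4.3e-06). Junb had levels of -0.26, -0.40 and -0.17 in control and 2.72, 2.72 and 2.87 in Ph3h (change 3.04 ± 0.14, adjusted p = 2.5e-06). Fosl2, Fos, Fosl1 and Jund rose by 2.68, 2.31, 1.79 and 1.04, and so did Maff, a small Maf protein, by 2.73. Jun was the exception within AP-1. Its levels were 5.41, 5.47 and 5.42 in control and 5.52, 5.45 and 5.32 in Ph3h, which overlap (change 0.00 ± 0.07, adjusted p = 0.96).

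Among the zinc finger factors Klf2 and Klf4, which restrain inflammatory and proliferative programs in macrophages and vessels, rose from 0.64, 0.73 and 0.69 to 5.82, 5.62 and 5.74 and from 1.48, 1.38 and 1.41 to 6.33, 6.23 and 6.26 (changes 5.04 ± 0.08 and 4.85 ± 0.09, adjusted p = 2.7e-08 and 4.4e-08). Klf6 rose by 0.62. Egr1 rose by 3.81 ± 0.16 (adjusted p = 1.9e-06) and Egr4, dim in control, by at least 3.58-fold, while Egr2 fell from 0.84, 0.87 and 0.90 to 0.33, -0.08 and 0.05 (change -0.77 ± 0.10, adjusted p = 5.2e-04). The groups of Egr2 did not overlap, so that within this family members lay on both sides of control. The largest fall of the list was that of Myc, a regulator of growth and ribosome production, from 0.67, 0.56 and 0.63 in control to -2.52, -2.36 and -2.66 in Ph3h, or 8.78-fold (change -3.13 ± 0.09, adjusted p = 4.2e-07). Its probe covers chr15:61821417-61821476 in mm9.
Myc probe: aacagttgaaacacaaactcgaacagcttc
Of the other members Ier2 and Ier3 rose by 1.97 and 3.12 and Atf3 by 0.43, or 0.19 with median scaling (adjusted p = 0.14).

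**Figure D2:**
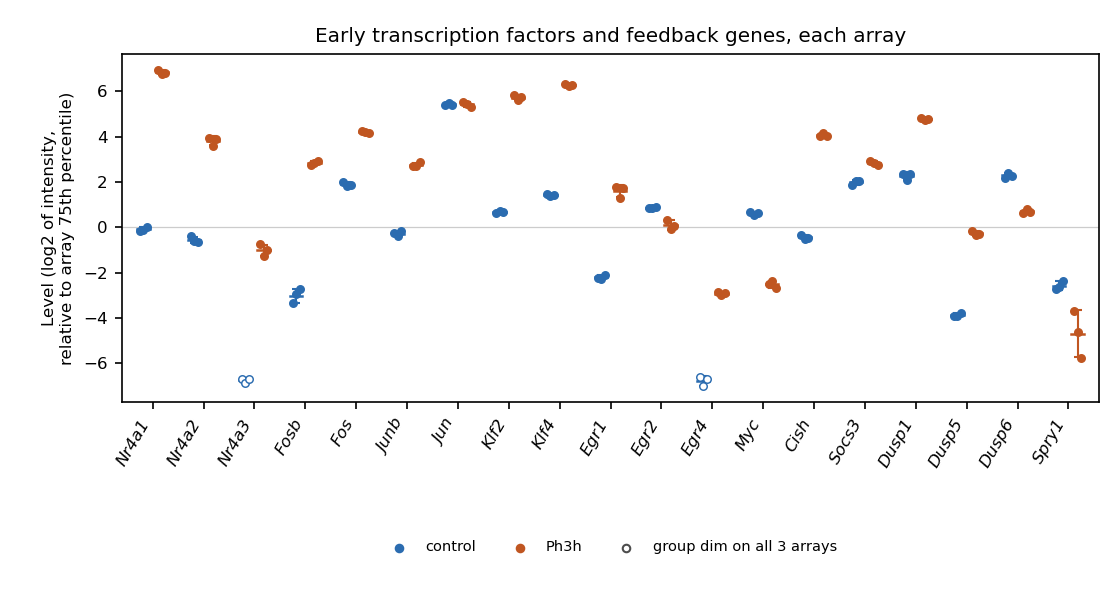
Levels (vertical axis, log2 relative to the array's 75th percentile) of 19 early transcription factor and feedback genes on each control array (blue) and Ph3h array (orange), with bars at the mean and whiskers of 1 SD over 3 arrays. Open circles mark groups that were dim on all 3 arrays. Nr4a1, Fosb, Klf2 and Klf4 lie high above control, Jun overlaps with it, and Egr2, Myc, Dusp6 and Spry1 lie below.

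Feedback inhibitors of kinase signaling rose, with exceptions on the ERK arm. Of 23 listed genes 22 were measured, 15 rose and 3 fell (median 0.69, 0.59 with dim genes at their bounds, and 12 and 3 with median scaling). Cish, a suppressor of cytokine signaling induced by STAT5, had levels of -0.35, -0.50 and -0.49 in control and 4.01, 4.14 and 4.02 in Ph3h, 22.7-fold apart (change 4.50 ± 0.11, adjusted p = 1.6e-07). Its relatives Socs2 and Socs3 rose by 2.03 and 0.84. The dual-specificity phosphatases remove phosphate from MAP kinases. Dusp5, the nuclear ERK phosphatase, rose from -3.91, -3.91 and -3.77 to -0.15, -0.34 and -0.32 (change 3.60 ± 0.11, adjusted p = 5.3e-07), and Dusp1, Dusp8, Dusp10, Dusp14 and Dusp16, which act chiefly on p38 and JNK or on several kinases, rose by 2.52, 2.58, 1.43, 2.90 and 0.87. Dusp6, the cytoplasmic ERK phosphatase, fell from 2.19, 2.39 and 2.27 to 0.63, 0.79 and 0.67 (change -1.59 ± 0.08, adjusted p = 4.7e-06). Spry1, an inhibitor of receptor tyrosine kinases, fell from -2.71, -2.63 and -2.37 to -3.72, -4.61 and -5.77 (change -2.13 ± 0.47, adjusted p = 0.0064), and only 1 Ph3h array was well above background. Rgs1 and Rgs2, which shorten G protein signals, rose by 0.79 and 0.59.

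Regulators of mRNA decay, which set how long cytokine transcripts last, moved in both directions. All 19 listed genes were measured, 11 rose and 4 fell (median 0.47; 9 and 6 with median scaling). Zc3h12a, an endonuclease that cuts inflammatory mRNAs, rose from 1.32, 1.26 and 1.46 to 2.97, 3.099 and 2.87 (change 1.63 ± 0.09, adjusted p = 5.4e-06), and Zfp36, which encodes tristetraprolin, by 1.55 ± 0.23. Its paralogs went the other way. Zfp36l1 fell from 1.75, 1.92 and 1.86 to 0.16, 0.31 and 0.29 (change -1.60 ± 0.07, adjusted p = 2.3e-06) and Zfp36l2 fell by 0.70. Khsrp, an AU-rich element binding protein, rose by 1.75, and on its other probe by 1.42. Among 15 measured clock genes of 18, 5 rose and 4 fell. Nfil3, a repressor of clock output and a cytokine-induced factor, rose from 2.73, 2.60 and 2.88 to 6.15, 6.34 and 6.24 (change 3.51 ± 0.09, adjusted p = 1.7e-07), and Per1 by 2.01 ± 0.11, while Dbp and Bhlhe41 fell by 0.81 and 0.94 and Per2 did not pass the test (adjusted p = 0.4).

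NF-kB genes rose in most of their members, in part those whose products shut the pathway off. All 22 listed genes were measured, 17 rose and 4 fell (median 0.81, and 13 and 4 with median scaling). Of the subunits Rel, which was dim in control, rose at least 4.12-fold (levels -6.87, -5.32 and -6.70 in control and -2.75, -2.93 and -2.50 in Ph3h, adjusted p = 6.1e-04). Nfkb1, Nfkb2 and Relb rose by 1.88, 1.72 and 0.99, and Rela had a change of 0.24, which turned to -0.01 with median scaling (adjusted p = 0.93). Among the inhibitors Tnfaip3, the ubiquitin-editing enzyme A20, rose from 2.93, 3.12 and 3.08 to 5.76, 5.68 and 5.64 (change 2.65 ± 0.09, adjusted p = 6.6e-07). The IkB genes Nfkbie, Nfkbid, Nfkbib and Nfkbia rose by 2.42, 2.18, 0.79 and 0.70, and the IkB-like gene Nfkbiz fell from 2.99, 2.94 and 2.99 to 2.33, 2.51 and 2.53 (change -0.52 ± 0.09, adjusted p = 0.0017). The kinase complex that releases NF-kB was lower in 2 of its 3 genes. Ikbkg, its scaffold, fell from 1.503, 1.43 and 1.56 to 0.14, 0.40 and 0.39 (change -1.19 ± 0.08, adjusted p = 2.1e-05), and by 1.29 on its other probe, Chuk fell by 0.45, and Ikbkb had a change of 0.13 (adjusted p = 0.16).

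Promoter sequences were at hand for 18 of the 22 NF-kB genes and are described here because most of these genes and several chemokine genes rose. Searched on both strands from 250 bases before to 50 after each start, the NF-kB motif was present in 11 of these 18 genes (61.1%) and in 11.9% of the 12,126 tested genes with a promoter in the RefSeq table of GRCm38.p6. Among genes that rose it was present in 10 of 15 on the NF-kB list, in 5 of 10 on the chemokine list, in 5 of 10 on the cytokine list, in 7 of 15 on the early transcription factor list and in 0 of 12 on the feedback list. On the NF-kB, chemokine and early transcription factor lists the AP-1 motif TGANTCA was present in 5, 4 and 0 of the 18, 15 and 19 genes with a promoter (7.22% of tested genes), and the CRE TGACGTCA in 1, 0 and 1 (3.32%). The CArG box was in 0, 1 and 2 (1.67%) and the E-box CACGTG in 1, 1 and 4 (10.6%). The cytokine and feedback lists had 18 and 19 genes with a promoter. There the AP-1 motif was in 7 and 0 and the CRE in 0 and 3. The CArG box was in 0 and 1 and the E-box in 1 and 2. A match describes the letters of the window and is not evidence of binding. The 250 bases before the start follow for the 3 neutrophil chemokines, whose NF-kB motif has the same 11 letters, for Nfkbie and Tnfaip3, and for Areg, which held the CRE. Capitals mark matches to any of the 5 motifs, which in Cxcl3 and Tnfaip3 include an E-box and in Nfkbie and Tnfaip3 an AP-1 motif, and overlapping matches run together.
Cxcl1 promoter, chr5:90890995-90891244, plus strand: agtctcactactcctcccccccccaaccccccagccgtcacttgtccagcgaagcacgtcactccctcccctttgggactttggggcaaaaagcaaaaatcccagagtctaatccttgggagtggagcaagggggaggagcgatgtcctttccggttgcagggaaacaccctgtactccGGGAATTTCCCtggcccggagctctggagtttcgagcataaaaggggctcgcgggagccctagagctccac
Cxcl2 promoter, chr5:90903649-90903898, plus strand: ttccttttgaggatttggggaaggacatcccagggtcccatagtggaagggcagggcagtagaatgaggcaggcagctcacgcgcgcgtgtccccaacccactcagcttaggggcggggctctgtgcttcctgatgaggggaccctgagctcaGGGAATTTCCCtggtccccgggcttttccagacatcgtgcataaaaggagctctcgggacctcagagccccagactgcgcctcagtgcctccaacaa
Cxcl3 promoter, chr5:90785851-90786100, plus strand: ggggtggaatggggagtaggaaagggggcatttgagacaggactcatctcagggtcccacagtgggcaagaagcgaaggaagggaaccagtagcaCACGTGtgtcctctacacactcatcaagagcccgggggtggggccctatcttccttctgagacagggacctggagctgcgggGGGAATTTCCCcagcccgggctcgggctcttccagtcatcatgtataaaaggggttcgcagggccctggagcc
Nfkbie promoter, chr17:45555450-45555699, plus strand: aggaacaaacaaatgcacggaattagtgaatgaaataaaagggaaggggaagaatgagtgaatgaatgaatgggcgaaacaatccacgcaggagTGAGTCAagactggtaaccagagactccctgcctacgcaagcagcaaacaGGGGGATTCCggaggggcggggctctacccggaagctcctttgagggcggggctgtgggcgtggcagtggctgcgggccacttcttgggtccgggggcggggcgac
Tnfaip3 promoter, chr10:19015411-19015660, minus strand: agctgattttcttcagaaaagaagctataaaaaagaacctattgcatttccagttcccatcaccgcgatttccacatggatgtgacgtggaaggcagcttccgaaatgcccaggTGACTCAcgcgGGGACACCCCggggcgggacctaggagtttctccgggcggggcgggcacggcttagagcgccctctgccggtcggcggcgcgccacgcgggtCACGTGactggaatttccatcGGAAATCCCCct
Areg promoter, chr5:91139349-91139598, plus strand: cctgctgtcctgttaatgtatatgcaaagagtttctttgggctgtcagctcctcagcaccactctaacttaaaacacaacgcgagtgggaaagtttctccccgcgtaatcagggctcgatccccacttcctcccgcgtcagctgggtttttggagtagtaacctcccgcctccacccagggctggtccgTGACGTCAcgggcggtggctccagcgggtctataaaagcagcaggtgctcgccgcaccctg

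Cxcl1, Cxcl2 and Cxcl3 rose, and CC chemokines moved in both directions. Of 28 listed chemokines 22 were measured, 15 rose and 2 fell (median 0.38, 0.32 with dim genes at their bounds). With median scaling 8 rose and 2 fell, and on slide 1 alone 9 and 1. The neutrophil chemokines Cxcl5 and Ppbp did not pass the test (adjusted p = 0.13 and 0.22). Cxcl1 had levels of -0.62, -0.31 and -0.28 in control and 3.53, 3.65 and 3.44 in Ph3h, 15.4-fold apart (change 3.94 ± 0.14, adjusted p = 7.5e-07). Cxcl2 rose from 1.27, 1.23 and 1.42 to 4.53, 4.50 and 4.49 (change 3.20 ± 0.10, adjusted p = 5.2e-07) and Cxcl3 by 2.75 ± 0.12. These 3 genes encode ligands of the receptor CXCR2, and on each the groups stood apart. Of the ligands of CXCR3, Cxcl10 rose by 2.09 and Cxcl9 by 1.13 (adjusted p = 0.026, and 0.15 on slide 1 alone). Ccl3, an attractant of monocytes and other leukocytes, fell from 8.003, 8.08 and 8.19 to 6.71, 6.59 and 6.65 (change -1.44 ± 0.08, adjusted p = 5.9e-06). Ccl4 had a change of -0.24 ± 0.08 (adjusted p = 0.04), a call that was lost on slide 1 alone (adjusted p = 0.18) and without control array 2 or 3 or any 1 of the Ph3h arrays, which left Ccl3 as the 1 fall. Of the other CC chemokines Ccl9 and Ccl12 rose by 1.13 and 1.03, and Ccl5, Ccl7 and Ccl6 were called with 0.40, 0.37 and 0.27, though not with median scaling. Ccl2, the monocyte attractant, had a change of 0.17 ± 0.06 (adjusted p = 0.045), which turned to -0.08 with median scaling (adjusted p = 0.54).

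Il1b, Il1rn, Osm, Clcf1, Lif and Csf3 rose, Il6 did not pass the test, and the TNF family ligands Tnf and Tnfsf10 fell. Of 32 listed cytokines 27 were measured, 17 rose and 6 fell (median 0.88, 0.76 with dim genes at their bounds, and 16 and 7 with median scaling). Il1b rose from 3.16, 2.86 and 3.09 to 6.28, 6.21 and 6.28 (change 3.22 ± 0.09, adjusted p = 3.5e-07). Il1rn, which encodes the antagonist of the same receptor, rose by 2.49 ± 0.09, Il1a by 1.08 and Il18 by 0.76. In the interleukin-6 family Osm, oncostatin M, rose from -1.31, -1.58 and -1.08 to 1.89, 1.82 and 1.69 (change 3.13 ± 0.12, adjusted p = 1.5e-06), Clcf1 by 2.04, and Lif, dim in control, at least 2.18-fold. Il6 itself had levels of 1.65, 1.28 and 1.44 in control and 1.49, 2.00 and 1.66 in Ph3h (change 0.26 ± 0.17, adjusted p = 0.23). Csf3, the granulocyte colony-stimulating factor, was dim on the control arrays and rose at least 5.34-fold (adjusted p = 1.4e-04). Tnf fell from 4.81, 4.88 and 4.80 to 3.85, 4.12 and 4.00 (change -0.84 ± 0.12, adjusted p = 6.2e-04), and Tnfsf10, the death ligand TRAIL, from -4.75, -4.07 and -4.17 to -6.65, -6.45 and -6.09, dim on all 3 Ph3h arrays (adjusted p = 1.2e-04). Tnfsf14 and Ltb, ligands of the lymphotoxin branch, rose by 2.62 and 1.80. Of the anti-inflammatory cytokines Il10 rose by 1.14 ± 0.13 (adjusted p = 2.1e-04), and Tgfb1 had 0.45 ± 0.06, or 0.20 with median scaling (adjusted p = 0.13). Outside that group Il16, a T cell attractant, fell by 1.14.

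**Figure D3:**
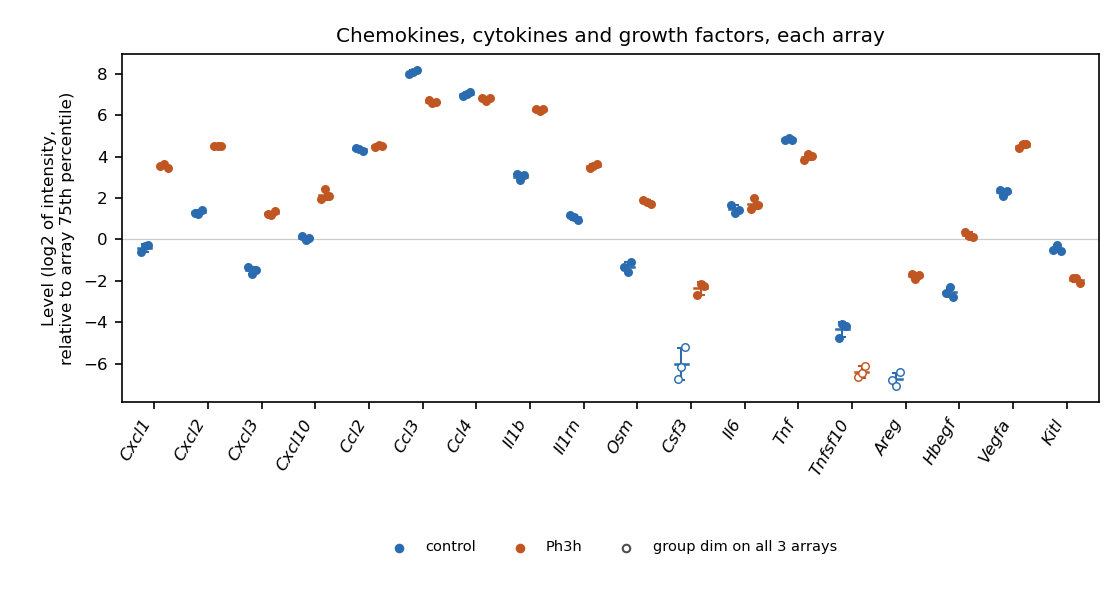
Levels (vertical axis, log2 relative to the array's 75th percentile) of 18 chemokine, cytokine and growth factor genes on each control array (blue) and Ph3h array (orange), with bars at the mean and whiskers of 1 SD over 3 arrays. Open circles mark groups that were dim on all 3 arrays. Cxcl1, Cxcl2, Il1b and Osm lie above control in Ph3h, and Ccl3, Tnf and Kitl lie below.

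Areg, Ereg and Hbegf, growth factors of the EGF family, rose. Of 38 listed growth and trophic factors 29 were measured, 11 rose and 7 fell (median 0.35, 0.27 with dim genes at their bounds). Areg, amphiregulin, was dim in control and rose at least 8.01-fold (levels -1.69, -1.92 and -1.70 in Ph3h, adjusted p = 2.6e-05), and Ereg, epiregulin, at least 2.87-fold. Hbegf rose from -2.56, -2.31 and -2.75 to 0.38, 0.17 and 0.12 (change 2.77 ± 0.22, adjusted p = 3.9e-05). Vegfa, the main angiogenic factor, rose from 2.41, 2.08 and 2.35 to 4.39, 4.62 and 4.59 (change 2.25 ± 0.10, adjusted p = 2.9e-06), while its relatives Vegfb and Vegfc fell by 0.84 and, on probes dim in Ph3h, at least 1.94-fold. Fgf2, dim in control, rose at least 3.1-fold. Kitl, stem cell factor, fell from -0.51, -0.25 and -0.57 to -1.85, -1.85 and -2.10 (change -1.49 ± 0.12, adjusted p = 4.8e-05). Ptn and Nrg1, which neurons also make, rose by 8.15 ± 0.34 and 5.38 ± 0.38, each with 1 control array well above background.

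Ptgs2 rose, and 3 prostaglandin receptor genes and Hpgd fell. Of 20 measured genes 7 rose and 6 fell, beside 27.9% higher and 25.9% lower over all genes. Ptgs2, the inducible cyclooxygenase, rose from 0.33, -0.05 and 0.18 to 3.83, 3.99 and 3.88 (change 3.75 ± 0.12, adjusted p = 5.9e-07), and its constitutive counterpart Ptgs1 had a change of 0.13 (adjusted p = 0.21). Hpgd, which inactivates prostaglandins, fell from 0.17, 0.14 and 0.13 to -2.20, -1.78 and -2.17 (change -2.20 ± 0.22, adjusted p = 1.2e-04), and by 2.31 on its other probe. The receptor genes Ptger2, Ptgir and Ptger4 fell by 2.49, 2.02 and 1.29 (adjusted p = 2.9e-07, 2.2e-06 and 2.6e-04). Ptger3 was dim in control and rose at least 1.98-fold, with 2 Ph3h arrays well above background. The leukotriene genes Alox5 and Ltc4s rose by 1.06 and 1.03.

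Genes of pericellular proteolysis rose at the plasminogen activator system. Of 24 measured genes 7 rose, 4 fell and 13 did not pass the test, with 7 and 7 under median scaling. Over all genes 27.9% were higher and 25.9% lower. Serpinb2, plasminogen activator inhibitor 2, rose from -4.24, -4.25 and -4.62 to -0.05, 0.18 and 0.11 (change 4.45 ± 0.12, adjusted p = 2.3e-07), and the urokinase receptor Plaur and urokinase itself, Plau, by 2.18 and 1.11. Of the matrix metalloproteases Mmp9 and Mmp14 rose by 2.10 and 1.00. Adamts1 fell by 1.43 ± 0.13.

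Tlr2, Cd14 and Nlrp3 rose, and Tlr3 and Tlr4 fell. Of 23 measured pattern recognition genes 10 rose and 6 fell, with 6 and 9 under median scaling. Tlr2, the receptor of lipoproteins, rose from 5.27, 5.27 and 5.31 to 8.10, 8.004 and 8.05 (change 2.77 ± 0.05, adjusted p = 4.5e-08), and the coreceptor Cd14 by 2.17 ± 0.07. Tlr4, the receptor of lipopolysaccharide, fell from 2.31, 2.26 and 2.29 to 0.78, 0.73 and 0.75 (change -1.53 ± 0.05, adjusted p = 6.4e-07), and Tlr3, the receptor of double-stranded RNA, fell by 1.08. The other Toll-like receptor genes had changes between -0.45 for Tlr6 and 0.40 for Tlr7. Nlrp3, the inflammasome sensor, rose from -4.00, -3.60 and -4.61 to -0.22, -0.07 and -0.23 (change 3.90 ± 0.23, adjusted p = 1.0e-05), and by 3.65 on its other probe. Clec4e, a lectin that binds a protein released by dead cells, rose by 1.99.

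Among 22 measured cytokine and chemokine receptors 10 rose and 8 fell, with 6 and 10 under median scaling. Il4ra rose from -0.39, -0.21 and -0.10 to 1.84, 2.07 and 2.00 (change 2.20 ± 0.10, adjusted p = 2.4e-06), and Il17ra and Csf3r by 1.72 and 1.58, while Il10ra fell from 3.93, 3.84 and 3.97 to 2.95, 2.97 and 3.02 (change -0.93 ± 0.06, adjusted p = 1.9e-05). Ccr7 was dim in control and rose at least 1.24-fold on 1 Ph3h array well above background. Il1r1, dim in Ph3h, fell at least 1.55-fold (adjusted p = 0.0049, and 0.062 on slide 1 alone). Of 28 measured receptors for nucleotides, lipids and chemoattractants 11 rose and 7 fell. The adenosine receptor genes Adora2b and Adora2a rose by 2.30 and 1.73, and Adora3 fell by 1.35 (adjusted p = 1.5e-06, 5.8e-05 and 4.5e-05). Gpr84, a receptor of medium-chain fatty acids, rose from 3.102, 3.06 and 3.04 to 5.25, 5.23 and 5.12. Ffar2, a receptor of short-chain fatty acids, had levels of -0.10, -0.56 and -0.65 in control and was dim in Ph3h, at least 11.9-fold lower (adjusted p = 2.2e-04). Lpar6 and P2ry1, receptors of lysophosphatidic acid and of ADP, fell by 2.42 and 2.25.

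Of 27 interferon-stimulated genes 11 rose and 4 fell (median 0.36, and 8 and 4 with median scaling). Zbp1, a sensor of nucleic acids, rose by 1.51 ± 0.18 and Irf7 by 1.47 ± 0.18, and 12 genes did not pass the test. The interferon regulatory factors Irf1 and Irf8 fell by 0.82 and 0.75. Ifnb1 was dim in control and rose at least 1.79-fold (adjusted p = 6.0e-04). Of 21 antigen presentation and costimulation genes 6 rose and 6 fell, shares near the 27.9% and 25.9% over all genes, and 2 rose and 11 fell with median scaling. Cd83, a maturation marker, rose from 4.25, 4.05 and 4.25 to 6.50, 6.57 and 6.61 (change 2.37 ± 0.13, adjusted p = 8.2e-06) and Cd86 by 0.68, while Cd40, Icosl and Tap1 fell by 0.53, 0.77 and 0.68. Among 12 measured alternative activation genes 4 rose and 4 fell. Tgm2 rose by 2.55 and Mrc1 by 1.02, and Arg1 and Irf4 fell by 0.98 (adjusted p = 0.0075) and at least 1.28-fold.

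Engulfment genes rose by small amounts in 18 of 26 members, while receptors for apoptotic cells moved in both directions. All 26 engulfment and actin genes were measured, 18 rose and 0 fell (median 0.43), and with median scaling 9 rose and 2 fell. None of these changes reached 1 on the log2 scale. Elmo1 and Dock2, which form the exchange factor for Rac, rose from -1.39, -1.29 and -1.33 to -0.24, -0.36 and -0.53 and from 2.09, 2.19 and 2.09 to 2.96, 3.09 and 2.94 (changes 0.96 ± 0.15 and 0.88 ± 0.07, adjusted p = 0.0013 and 4.0e-05). Coro1a, an actin-binding coronin of phagosomes, and Rac2, the hematopoietic Rac, rose by 0.94 and 0.89, whereas Rac1 had a change of 0.06 (adjusted p = 0.43).

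Of 29 genes for apoptotic cell receptors and bridging proteins 26 were measured, 9 rose and 6 fell, with 7 and 11 under median scaling. The count of falls was 2 without control array 3, without Ph3h array 1 or on slide 1 alone, and 3 without control array 2 or Ph3h array 3. The TAM receptor genes Mertk and Axl had levels of 2.69, 2.76 and 2.63 and 2.54, 2.27 and 2.24 in control and 2.60, 2.57 and 2.68 and 2.57, 2.48 and 2.71 in Ph3h, and neither passed the test (changes -0.08 ± 0.07 and 0.24 ± 0.10, adjusted p = 0.38 and 0.075). Of the integrins Itgam and Itgb2, the chains of complement receptor 3, rose by 1.39 and 0.97 (adjusted p = 3.4e-05 and 1.5e-05), and Itgb3 and Itgb5, which pair with the alpha v chain to bind the bridging protein MFG-E8, fell from 1.504, 1.58 and 1.41 to 0.22, 0.16 and 0.32 and by 0.61. Msr1, a scavenger receptor, rose by 0.71. Bai1, a phosphatidylserine receptor of neurons and other cells now named Adgrb1, rose by 6.70 on its brightest probe, with 1 control array well above background, and its other probe had 1.51 (adjusted p = 0.11).

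Lysosome and phagosome genes changed little. All 40 were measured, 8 rose and 16 fell, with changes between -0.77 and 0.69 (median -0.11), and with median scaling 2 rose and 23 fell, and with quantile normalization 3 and 26. Gaa fell from 6.75, 6.98 and 6.87 to 5.99, 6.07 and 6.24 (change -0.77 ± 0.09, adjusted p = 2.5e-04), with 0.29 on another probe (adjusted p = 0.62), and Npc1, the cholesterol carrier of the late endosome, by 0.72. Ctsb rose by 0.58 ± 0.11, a call lost with quantile normalization (adjusted p = 0.65). Tfeb, the master regulator of lysosome genes, had a change of 0.09 ± 0.07 (adjusted p = 0.29) and its relative Tfe3 of 0.37 (adjusted p = 0.0019, and 0.33 with median scaling).

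Homeostatic microglia genes did not move as a block. Of 22 measured of 23, 8 rose and 7 fell (median -0.07, and 7 and 10 with median scaling). Over all genes 27.9% were higher and 25.9% lower. P2ry12, the ADP receptor of surveying microglia, rose from -3.72, -3.73 and -3.99 to -2.39, -2.09 and -2.28 (change 1.56 ± 0.10, adjusted p = 1.7e-05), and the sugar transporter gene Slc2a5 rose by 2.35 ± 0.41. The complement genes C1qa, C1qb and C1qc rose by 0.97, 0.87 and 0.67. Cx3cr1, the fractalkine receptor, fell from 2.61, 2.33 and 2.42 to 1.53, 1.89 and 1.41 (change -0.84 ± 0.18, adjusted p = 0.0057), and Tmem119 and Olfml3 by 0.94 and 1.26 (adjusted p = 1.9e-04 and 1.7e-04). Gpr34, a lipid receptor, was dim on all 3 Ph3h arrays (adjusted p = 0.0012). Trem2 and Csf1r had changes of -0.17 and 0.11 (adjusted p = 0.073 and 0.16).

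Lipid genes held single large changes rather than a common one. Of 24 genes of cholesterol export, LXR and PPAR 8 rose and 10 fell (median -0.07). Angptl4, an inhibitor of lipoprotein lipase and a PPAR target, fell from 2.14, 2.29 and 2.03 to -0.88, -1.07 and -1.21, or 9.23-fold (change -3.21 ± 0.10, adjusted p = 5.8e-07). Ch25h, which makes 25-hydroxycholesterol, and Apoe fell by 1.17 and 0.61. Pltp, the phospholipid transfer protein, rose from -1.60, -1.25 and -1.35 to 0.70, 0.93 and 0.89 (change 2.24 ± 0.11, adjusted p = 3.4e-06). The cholesterol exporters Abca1 and Abcg1 had changes of 0.43 and 0.29. Both calls were lost with median scaling (adjusted p = 0.42 and 0.73), with quantile normalization (0.060 and 0.089) and on slide 1 alone (0.22 and 0.075). The Abca1 call was also lost with normexp (0.094), with the slide as a block (0.054) and in most fits with 1 array left out. Ppard rose by 1.91, and Ppara by 2.04 on its brightest probe and 6.69 on the other. Of 27 cholesterol synthesis and uptake genes 16 rose and 3 fell (median 0.26), but 6 rose and 5 fell with median scaling and the median was then 0.01. Acat2 and Insig1, the latter a brake on the pathway, rose by 1.60 and 1.41 (adjusted p = 1.0e-04 and 7.3e-06), and Sc5d and Ggps1 fell by 0.38 and 0.31, with Ggps1 at -0.05 on another probe (adjusted p = 0.52).

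Hypoxia-responsive genes fell in most of their members, the lowest median of the pathway lists. Of 23 listed genes 22 were measured, 3 rose and 15 fell (median -0.69, the same counts with median scaling). Mgarp, a mitochondrial protein, fell from 0.61, 0.51 and 0.23 to -3.15, -3.65 and -3.37, or 14.3-fold (change -3.84 ± 0.16, adjusted p = 1.6e-06). Stc2, a secreted glycoprotein, was dim in Ph3h (adjusted p = 1.8e-05). Egln3, an oxygen-sensing hydroxylase, fell from 0.56, 0.62 and 0.42 to -1.40, -1.45 and -1.47 (change -1.97 ± 0.08), and Ak4, Ero1l, Ankrd37 and Bnip3 by 1.91, 1.52, 1.35 and 0.68. Hif1a, the oxygen-regulated factor itself, had a change of 0.16 (adjusted p = 0.16) and Ldha, which makes lactate, of 0.20 (adjusted p = 0.074). Ndrg1, Kdm3a and the glucose transporter gene Slc2a1 rose by 1.05, 0.69 and 0.57. Vegfa, a textbook hypoxia gene kept on another list, rose as given above.

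Most genes of the amino acid stress response also fell. Of 28 genes of ATF4 and the unfolded protein response 8 rose and 16 fell (median -0.36), with 4 and 20 under median scaling. Trib3, a pseudokinase induced by ATF4 and CHOP, fell from 7.26, 7.03 and 7.30 to 4.49, 4.55 and 4.70 (change -2.62 ± 0.09, adjusted p = 8.6e-07). Ddit3, which encodes CHOP, fell from 4.75, 4.48 and 4.64 to 2.50, 2.27 and 2.68 (change -2.14 ± 0.11, adjusted p = 6.0e-06). The synthesis genes of serine, Phgdh and Psat1, and of asparagine, Asns, fell by 2.08, 0.75 and 1.77, and Chac1, which degrades glutathione, by 1.92. Atf4 itself had a change of -0.05 ± 0.09 (adjusted p = 0.64), and the endoplasmic reticulum chaperone gene Hspa5 of 0.04 (adjusted p = 0.61). Cebpb, a partner of these factors that also drives inflammatory genes, rose from 5.92, 6.08 and 5.90 to 7.79, 7.93 and 7.74 (change 1.86 ± 0.08, adjusted p = 2.0e-06). Slc7a5, an amino acid transporter, had 1.41 on its brightest probe, -0.98 on the other (adjusted p = 0.0040) and 0.22 with their mean (adjusted p = 0.22). Cebpd, a relative of Cebpb which was not on the list, fell from 6.43, 6.70 and 6.71 to 3.57, 3.84 and 3.69 (change -2.91 ± 0.11, adjusted p = 1.3e-06).

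Of 18 measured heat shock genes 7 rose and 3 fell, with 4 and 4 under median scaling. Hspa1a, inducible HSP70, stood apart with -2.90, -3.15 and -2.97 in control and 1.23, 1.45 and 1.51 in Ph3h, or 21.1-fold (change 4.40 ± 0.09, adjusted p = 9.3e-08), Hspb1, a small heat shock protein, rose by 1.07, and the cochaperone genes Hspa4l and Chordc1 fell by 0.59 and 0.35. All 22 listed NRF2 targets were measured, 12 rose and 4 fell (median 0.33), and 7 rose and 6 fell with median scaling. Nfe2l2, which encodes NRF2, rose from 5.65, 5.63 and 5.57 to 7.12, 6.89 and 7.12 (change 1.43 ± 0.07, adjusted p = 5.2e-06). The ferritin genes Fth1 and Ftl1 rose by 1.13 and 1.05, and Slc40a1, the iron exporter ferroportin, fell from 3.46, 3.38 and 3.30 to 1.81, 1.91 and 1.80 (change -1.54 ± 0.08, adjusted p = 6.0e-06). Hmox1 rose by 0.58 and Nqo1 had a change of -0.16 (adjusted p = 0.38), while Cat, catalase, fell by 0.37.

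**Figure D4:**
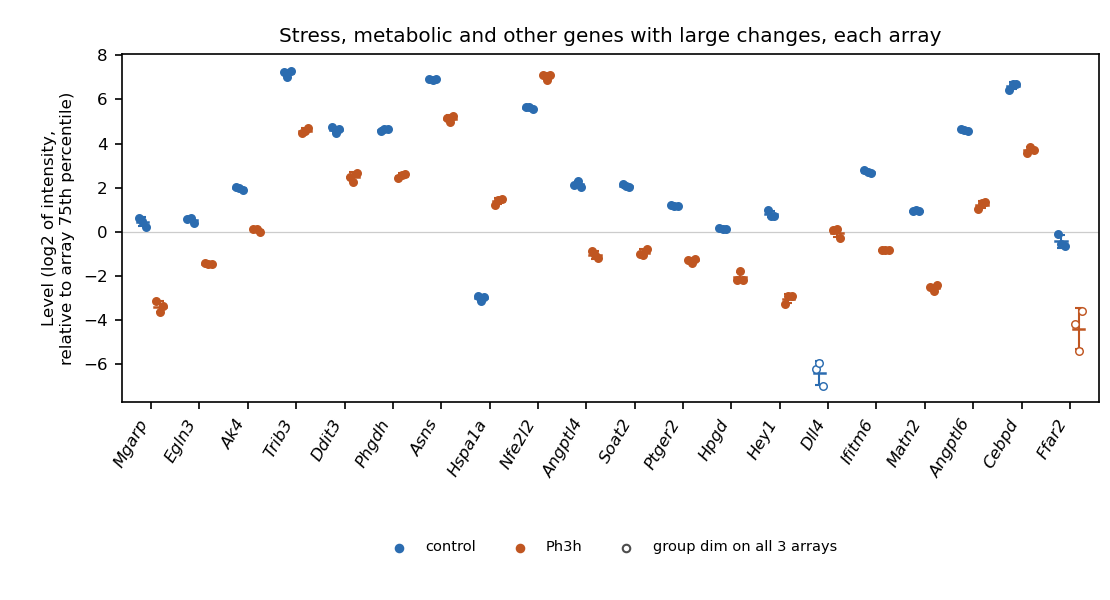
Levels (vertical axis, log2 relative to the array's 75th percentile) of 20 stress, metabolic, signaling and other genes with large changes on each control array (blue) and Ph3h array (orange), with bars at the mean and whiskers of 1 SD over 3 arrays. Open circles mark groups that were dim on all 3 arrays. Hspa1a, Nfe2l2 and Dll4 lie above control in Ph3h and the other 17 lie below.

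Growth and survival genes moved in both directions. Ribosome biogenesis genes, many of them Myc targets, fell in 15 and rose in 4 of 29 (median -0.24), and in 20 and 2 with median scaling. Pes1 and Polr1e fell by 0.84 and 0.66, with Pes1 at 0.10 on its other probe (adjusted p = 0.31), Nop56 fell by 0.78, with -0.04 on another probe (adjusted p = 0.70), and Rrp12 and Wdr43 rose by 1.07 and 0.91, with Wdr43 at -0.17 on another probe (adjusted p = 0.093). Of 23 regulators of G1 9 rose and 6 fell, beside 27.9% and 25.9% over all genes, but 4 rose and 11 fell with median scaling. Ccnd1, cyclin D1, rose from 3.15, 3.33 and 3.16 to 4.64, 4.68 and 4.58 (change 1.42 ± 0.24, adjusted p = 0.002), Cdkn1a, the inhibitor p21, by 0.93, while E2f2 fell by 0.67 and Cdkn1c, the inhibitor p57, fell from 3.74, 3.71 and 3.56 to 2.26, 2.17 and 2.38 (change -1.40 ± 0.08, adjusted p = 8.1e-06). Cdkn1b, the inhibitor p27, had 0.99 on its brightest probe, -0.64 on the other and 0.17 with their mean (adjusted p = 0.43). Among 24 survival and death genes 10 rose and 9 fell, with 6 and 11 under median scaling. The p53 targets Bbc3 and Mdm2 rose by 1.52 and 0.94, the survival gene Mcl1 by 0.91, and Casp9, the initiator of the mitochondrial pathway, fell by 0.92, as did Bmf by 0.98. The proapoptotic gene Bcl2l11 had 1.26 on its brightest probe, -0.46 on the other and 0.40 with their mean (adjusted p = 0.057). Of 14 measured arginine, nitric oxide and polyamine genes 8 rose and 3 fell, with 5 and 3 under median scaling. Odc1, the first enzyme of polyamine synthesis, rose from 4.28, 4.39 and 4.37 to 6.07, 6.06 and 6.02 (change 1.70 ± 0.06, adjusted p = 9.3e-07), by 1.74 to 1.96 on its other 3 probes, and Arg2 by 1.86, whereas Nos2 had a change of 0.18 (adjusted p = 0.25).

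Notch genes held some of the widest changes in both directions. Of 22 listed genes 17 were measured, 5 rose and 6 fell, beside 27.9% higher and 25.9% lower over all genes. The ligand gene Dll4 was dim in control (-6.21, -5.95 and -6.998) and reached 0.06, 0.11 and -0.28 in Ph3h, at least 26.6-fold higher (adjusted p = 1.8e-06). Nrarp, a target that feeds back on the Notch receptor, was also dim in control and rose at least 11.2-fold (adjusted p = 2.0e-07), and the ligand gene Jag1 rose by 1.78. Hey1, the target with the widest fall, went from 0.99, 0.73 and 0.71 to -3.27, -2.92 and -2.90, or 14.3-fold (change -3.84 ± 0.18, adjusted p = 3.5e-06). Of the receptor genes Notch4 was dim in Ph3h (adjusted p = 0.012, and 0.082 on slide 1 alone), and Notch1 had a change of -0.34 (adjusted p = 0.15).

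**Figure D5:**
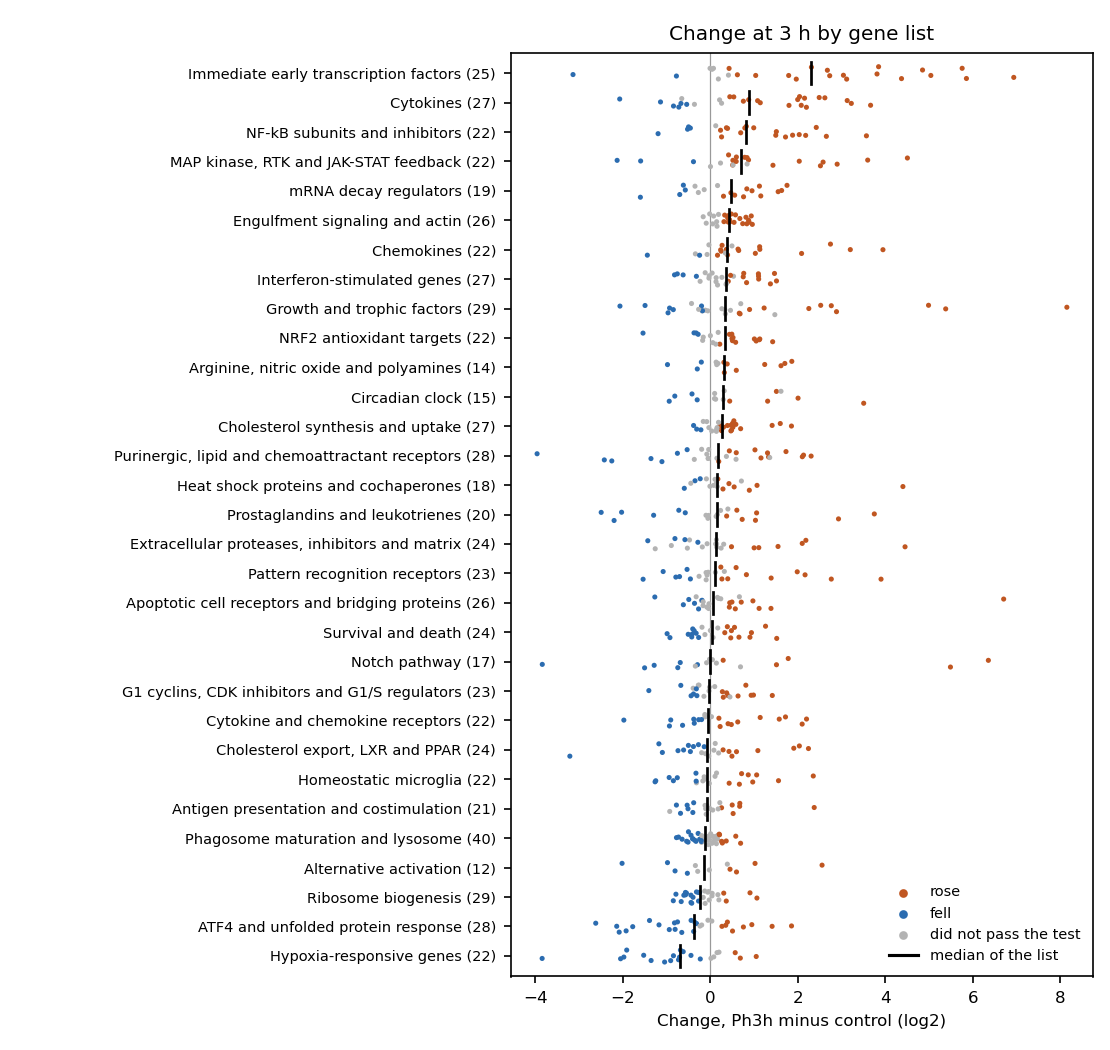
Change from control to Ph3h (horizontal axis, log2) of each measured gene of 31 pathway lists, with the number of measured genes in parentheses and lists ordered by their median (black bar). Orange genes rose, blue genes fell and gray genes did not pass the test. Immediate early transcription factors have the highest median at 2.31 and hypoxia-responsive genes the lowest at -0.69, and genes are plotted at their fitted change also where they were dim in a group.

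The 15 widest falls among genes well above background on all 6 arrays, with Myc, Mgarp, Hey1, Angptl4 and Cebpd given above, included genes with no common list. Ifitm6, of the interferon-induced transmembrane family, went from 2.79, 2.69 and 2.65 to -0.85, -0.84 and -0.83 (change -3.55 ± 0.09, adjusted p = 2.3e-07). Matn2, a matrix protein, and Angptl6, a secreted relative of Angptl4, fell from 0.95, 0.99 and 0.93 to -2.50, -2.69 and -2.41 and from 4.66, 4.63 and 4.58 to 1.05, 1.29 and 1.34. In each of these 3 genes the control arrays lay far above the Ph3h arrays. Slc6a9, the glycine transporter GLYT1, fell by 3.29 on one probe and 3.33 on the other, Unc93a by 3.17, Soat2, which esterifies cholesterol, by 3.02, Cox6a2, the muscle form of a cytochrome oxidase subunit, by 2.88, and Slc43a3, a transporter of purine bases, by 2.86. The adjusted p of each lay between 1.9e-07 and 2.2e-06. The predicted gene Gm9856 and a noncoding transcript of chromosome 16 made up the 15, with changes of -2.92 and -3.02.

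Of genes that were present in control and dim on all 3 Ph3h arrays, the widest bounds, beside that of Ffar2, belonged to Dkk2, a modulator of Wnt signals (at least 15.1-fold lower), Akr1b7, an aldo-keto reductase (at least 12.5-fold), and F5, coagulation factor V (at least 12.3-fold). Lpar4, another receptor of lysophosphatidic acid, was at least 7.96-fold lower and Spry3 at least 6.33-fold. Dkk2 had levels of -0.49, -0.24 and -0.11 in control and -4.54, -4.42 and -3.90 in Ph3h (adjusted p = 2.5e-06).

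Among the 15 widest rises of genes well above background on all 6 arrays, those other than Vgf, Nr4a1 and Fosb were Cacng7, a subunit of neuronal receptor complexes, at 7.53, Gpr26 at 7.20, Nfib, a transcription factor of brain and lung, at 6.66, Lpo at 6.65, the neuronal actin-binding gene Dbn1 at 6.63, Fbln1 at 5.99, Fbxl16 at 5.74 and Rnf208 at 5.65. The other 4 carried no gene symbol and rose by 6.10 to 7.65. Nfib was seen on 5 probes, which rose by 2.41 to 6.66, and Cacng7 rose by only 1.04 on its other probe. Several of these genes are neuronal. Their lower level in control than on all 3 Ph3h arrays follows from how they were picked, as the widest rises without overlap between groups. The part of human RNA in these genes cannot be told apart from that of the microglia.

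Probes of one gene often differed. Of 6955 genes with more than 1 kept probe, all probes rose in 765, all fell in 979, none was called in 1676, some were called one way in 3030 and probes were called in both directions in 505. Over single probes 17,536 of 34,381 (51.0%) were called, 9040 higher (26.3%) and 8496 lower (24.7%). Transcripts named only by their genome coordinates were higher in 1184 and lower in 348 of 3518 (33.7% and 9.89%), with a median change of 0.44. With median scaling their median was 0.19 and with normexp 0.06, beside -0.18 and -0.04 over all genes. In the quartile of genes with the lowest mean level the median change was 0.31, and in the quartile with the highest it was 0.03, or -0.01 and -0.11 with quantile normalization, with or without normexp.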

How the data were processed

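RNA was labelled with 1 dye and hybridized to Agilent mouse arrays of 60-base probes. The deposited intensity values are background-subtracted processed signals that the authors extracted with Agilent Feature Extraction 10.7.3.1, per the file headers, with probe coordinates in mm9. The deposited value table of log2 values, used as an alternative, has each probe centred on its mean over the 9 arrays, and how it was scaled is not stated in the sources at hand. Its medians were 0.0948, 0.0897 and 0.0981 for control, 0.0061, 0.0021 and -0.0055 for Ph3h and -0.0715, -0.0471 and -0.0543 for Ph24h.

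Of 55,681 probes, 56 were left out because their spots carried outlier marks. Log2 intensities were reduced by the 75th percentile of the array, spots of a probe were averaged, and 34,381 probes were kept because 1 or more of the 9 arrays measured them well above background. The probe with the highest mean stood for a gene. The fit used limma 3.58.1 (R 4.3.3) with a mean for each group over all 9 arrays, after a test on simulated data. Slides were told apart by the scan date alone, with replicates 1 and 2 of each group on slide 1 and replicate 3 on the other. Alternatives were other scalings, filters and probe summaries, the slide and the replicate number as blocks, and each array left out. The number of arrays limits the precision.

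The members and lists were chosen with earlier results of these data known. Named were, of genes called with no overlap between groups, up to 2 rises and 2 falls per list, the 15 widest rises and 15 widest falls on all 6 arrays, and the 10 highest bounds each way. Other list members were named after their values were seen, and some genes are not reported here. Accessions of 15,193 of 24,101 genes were found in the RefSeq gene table, 14,324 with the same symbol, and promoters are those of RefSeq for GRCm38.p6.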

Additional observations from a re-analysis of the deposited data

Results flagged for a closer look

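Of the genes named above that were well above background on all 9 arrays, the 8 with the widest difference between 24 h and 3 h after feeding (Ph24h minus Ph3h, log2) are given here, tested in limma in the same fit over 24,101 genes, of which 44.4% were called. Both times share the control arrays, and each difference below is the direct contrast of 3 Ph24h with 3 Ph3h arrays.

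The early genes Nr4a1, Fosb and Cish were lower at 24 h than at 3 h but still above control. Against control they had changes of 1.60, 1.04 and 0.97 at 24 h (adjusted p = 0.0035, 0.016 and 1.7e-04). Nr4a1 had levels of 0.75, 1.54 and 2.22 in Ph24h, a difference of -5.34 from Ph3h (adjusted p = 1.3e-05), Fosb of -2.31, -2.35 and -1.31, a difference of -4.82 (adjusted p = 1.3e-05), and Cish of 0.53, 0.32 and 0.73, a difference of -3.53 (adjusted p = 1.0e-06). Cd83 and Ccnd1 were above control at 3 h and below it at 24 h, with differences of -3.86 and -4.87 (adjusted p = 1.4e-06 and 5.7e-06). Mgarp and Arg1 were below control at 3 h and above it at 24 h, with differences of 6.28 and 6.03 (adjusted p = 6.5e-07 and 1.7e-06). Cx3cr1 was below control at 3 h and lower still at 24 h, with a difference of -3.71 (adjusted p = 5.0e-06). For each of the 8 genes the Ph24h and Ph3h arrays did not overlap. They were picked for the size of this difference.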

How the results depend on the processing

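Of 298 genes named, 256 kept their side of the threshold and their direction in all of up to 18 alternatives. The number of genes called was 10,960 on slide 1 alone, 12,941 with the slide as a block, 12,848 with median scaling and 11,444 to 12,179 when 1 array was left out, with 5965 to 6493 higher, 5455 to 5797 lower and 15,310 to 16,231 probes. With median scaling 4320 genes were higher and 8528 lower. Without a filter on dim probes 12,455 genes were higher, 66.9% of those called, and 29,268 probes were called, since probes at background entered. Correlations of same-numbered arrays' deviations from their group means were -0.057, -0.006 and 0. With so few arrays per group these values cannot decide whether same-numbered arrays share an experiment. With the replicate block 12,511 genes and 16,844 probes were called. Directions that turned were mostly those of genes that did not pass the test. With median scaling these were Axl (-0.0042), Ccl2 (-0.079), Csf1r (-0.14), Hif1a (-0.090), Hspa5 (-0.21), Ikbkb (-0.12), Ldha (-0.045), Nos2 (-0.069), Ptgs1 (-0.11), Rac1 (-0.19), Rela (-0.010) and Tfeb (-0.15). With quantile normalization, normexp and the value table, in this order, Csf1r had -0.23, -0.21 and -0.23, Hspa5 -0.15, -0.22 and -0.15, Ldha -0.23, -0.24 and -0.23, Rac1 -0.090, -0.081 and -0.093, and Cxcl5 -0.21, -0.034 and -0.21, and the first 3 genes were then called lower. Kdr had -0.63 with the mean over its probes, and on slide 1 alone Jun had 0.044 and Atf4 0.0020. With 1 array left out Gfap ran from -1.73 to 1.01, Jun from -0.0495 to 0.0521 and Atf4 from -0.11 to 0.0001. The causes were not tested. Low signals limit what can be read from dim genes.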
